A study of Homo sapiens with 12 samples.

Results

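The miRNAs miR-23, miR-27 and miR-24 are made from a pair of gene clusters, one on chromosome 19 (miR-23a, miR-27a and miR-24-2) and its paralog on chromosome 9 (miR-23b, miR-27b and miR-24-1). The 7 mature miRNAs described here were chosen by name, out of 1636 in the count table, and followed across vesicles of all 6 lines. They are hsa-miR-23a-3p and hsa-miR-27a-3p from chromosome 19, hsa-miR-23b-3p, hsa-miR-23b-5p, hsa-miR-27b-3p and hsa-miR-27b-5p from chromosome 9, and hsa-miR-24-3p, which both chromosomes give. The species prefix is left off below. All 7 had counts and passed the filter on low counts. The series measured small RNA in extracellular vesicles, the membrane-bound particles that cells shed, from the colorectal cancer (CRC) lines MDST8, Car-1, Hutu80, HT55, SW1116 and RCM-1. Each line had 2 libraries, 12 in all. The lines are untreated and unedited as far as the labels say, and all were cultured in serum-containing DMEM/F12 (fetal bovine serum). The labels call every line CRC, while Hutu80 is known as a line from a duodenal carcinoma. The series describes 3 lines of consensus molecular subtype CMS2 and 3 of CMS4, but no label used here says which line is which, so lines were compared and subtypes were not.

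A miRNA is cut from a hairpin in a longer transcript, and its bases 2 to 8, the seed, select the messenger RNAs whose output it lowers. Hairpins of one cluster are transcribed together, so their products share a promoter but can differ in how they are processed and how long they last. In the literature miR-27 is known as a regulator of fat cell and blood vessel biology and of the tumour suppressor FBXW7, miR-23a as a regulator of glutaminase and of epithelial cell adhesion, and miR-24 as a regulator of cell cycle genes and of apoptosis. Vesicles carry only the part of these miRNAs that leaves the cell, so a lower level in the cell and less export cannot be told apart here. Levels are relative to the other miRNAs of a library, so the number of vesicles a cell sheds is not measured.

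The mature sequences are shown because the copies differ at so few bases. They are those of RefSeq (GRCh38.p14, the assembly also called hg38), where all 7 names matched, written 5′ to 3′ with the seed in capitals.
miR-23a-3p: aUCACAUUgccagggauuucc
miR-23b-3p: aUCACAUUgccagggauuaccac
miR-27a-3p: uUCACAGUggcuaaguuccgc
miR-27b-3p: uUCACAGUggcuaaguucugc
miR-24-3p: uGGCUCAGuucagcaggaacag
miR-23b-5p: uGGGUUCCuggcaugcugauuu
miR-27b-5p: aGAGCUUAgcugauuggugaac
Counted from 1 at the 5′ end, miR-23a-3p and miR-23b-3p differ by U19A, and miR-23b-3p is 2 bases longer. miR-27a-3p and miR-27b-3p differ by C19U and are both 21 bases long. Each pair has 1 seed in common, so the copies are predicted to pair with the same messenger RNAs through it. The miR-23 seed UCACAUU and the miR-27 seed UCACAGU have their first 5 bases in common, while the seed of miR-24 is unrelated. A read that ended within the first 18 bases would carry no base that separates the copies, and how the authors' counter treated such reads is not given in the sources used here.

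The origin of miR-24-3p cannot be read from its sequence, since both hairpins hold it whole, as their letters show (mature part in capitals).
MIR24-2, chromosome 19: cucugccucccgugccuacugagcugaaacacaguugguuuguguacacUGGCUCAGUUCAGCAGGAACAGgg
MIR24-1, chromosome 9: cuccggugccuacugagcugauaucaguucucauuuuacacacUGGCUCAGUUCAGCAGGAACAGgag
The chromosome 19 hairpins lie on the minus strand within 373 bases (chr19:13836287-13836659), inside the non-coding gene AC020916.1 in GENCODE release 29. Each of these hairpins overlaps an exon of that gene. Those of chromosome 9 lie on the plus strand within 881 bases (chr9:95085208-95086088), inside the protein-coding gene C9orf3. MIR23B and MIR27B are intronic there, and MIR24-1 overlaps an exon of a C9orf3 transcript.

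The libraries held 71831 (Hutu80 replicate 1) to 622800 counts (SW1116 replicate 1), and 318 miRNAs were tested. Levels below are CPM, a library's counts rescaled to a common total, adjusted by trimmed-mean (TMM) factors, and differences are log2 values from edgeR, a line minus the mean of the other 5, with their standard error (SE). Whether a line's 2 libraries stem from different cultures is not in the labels, and p-values therefore reflect only how far these libraries differ, possibly for technical reasons. No line held the same library deposited a second time, since the chi-square of counts between its libraries, divided by the degrees of freedom, was 8.10 (Hutu80) to 51.2 (Car-1). All 5 gut epithelial miRNAs on the marker list were counted in every library, with summed levels of 4054 to 5470 CPM in MDST8, 8613 to 10096 in Hutu80, 16077 to 28540.0 in Car-1 and 87543 to 131780 over the libraries of HT55, SW1116 and RCM-1. Most of each sum was miR-200c-3p, with means from 3592 CPM in MDST8 to 91988 in HT55. The others did not all keep this order. miR-192-5p averaged 1044 CPM in Car-1 and 1121 in Hutu80, and miR-194-5p 446 and 456. miR-375-3p averaged 1333 CPM in SW1116, against 5913 in HT55 and 7049 in RCM-1, but was higher in Car-1 (674) than in Hutu80 (481), as was miR-141-3p (66.0 and 26.4).

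Together the 7 miRNAs took 0.684% (RCM-1 replicate 1) to 2.36% (Car-1 replicate 1) of a library's counts. miR-23a-3p was the most abundant in 10 of the 12 libraries, ranking 17th to 33rd among all miRNAs in its library. The exceptions were the Car-1 libraries: in replicate 1, miR-27b-3p had 1187 counts and miR-23a-3p 1112, and in replicate 2, miR-23b-3p had 1048 and miR-23a-3p 815. The 5p arms were rare, with 78 counts of miR-23b-5p and 108 of miR-27b-5p in all 12 libraries together.

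**Figure D1:**
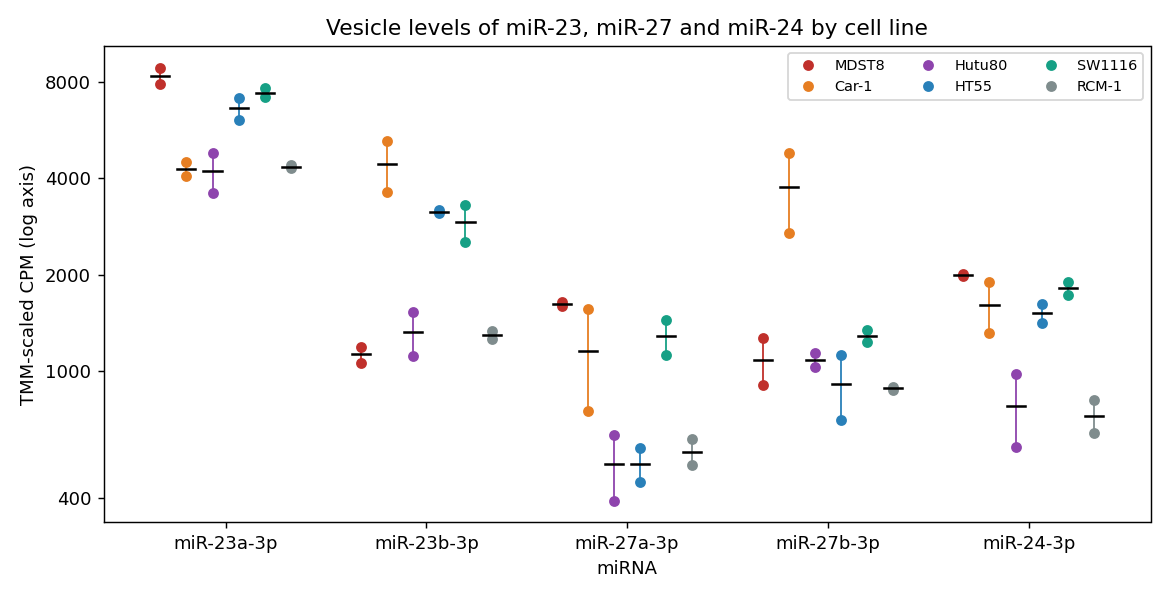
Levels of the 3p miRNAs in each library (points, TMM-scaled CPM, log axis) by cell line, with the mean of the 2 libraries as a bar. MDST8 had the highest miR-23a-3p, miR-27a-3p and miR-24-3p (for the last pair only with the TMM factors), and Car-1 the highest miR-23b-3p and miR-27b-3p.

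Among the lines, the 5 miRNAs that reached the filter level of 52.7 CPM in all 12 libraries, the 3p arms, differed in edgeR's quasi-likelihood F-test at a Benjamini-Hochberg adjusted p below 0.05, a mark that 68.2% of all tested miRNAs passed. The chromosome 9 copies had the smallest p (adjusted p = 2.86e-06 for miR-23b-3p and 8.39e-06 for miR-27b-3p), followed by miR-27a-3p (0.000319), miR-24-3p (0.000902) and miR-23a-3p (0.00206). These p-values come from different levels of count and do not rank the size of the change. The 2 rare 5p arms entered the test only through the libraries where they were high, so a difference between lines was built into their selection, and their tests are not read as results.

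The chromosome 19 copies were highest in MDST8. miR-23a-3p had 7878 and 8893 CPM in MDST8, 7197 and 7663 in SW1116, 6110.3 and 7141 in HT55, 4312 and 4396 in RCM-1, 4503 and 4061 in Car-1, and 3609 and 4813 in Hutu80. Both MDST8 libraries lay above the other 10, though not without the TMM factors (7327 unscaled CPM in MDST8 replicate 1, against 7451 in HT55 replicate 2), SW1116 and HT55 followed without overlap, and the libraries of RCM-1, Car-1 and Hutu80 overlapped. The mean of MDST8 was 1.99 times that of Hutu80. miR-23a-3p was 0.68 ± 0.19 (SE) higher in MDST8 than in the other lines (8386 ± 718 CPM, SD, n = 2, against a mean of 5381 in the others, adjusted p = 0.00532, edgeR), a call that ended without MDST8 replicate 2 (0.114). Its differences in SW1116 (0.47 ± 0.19, adjusted p = 0.0609) and in Hutu80 (-0.51 ± 0.21, 0.0610) did not pass, although of 19 other settings or left-out libraries they did in 7 and in 14.

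miR-27a-3p, its neighbour in the cluster, had 1645 and 1596 CPM in MDST8, 1119 and 1443 in SW1116, 1559 and 747 in Car-1, 508 and 610.0 in RCM-1, 450.1 and 575 in HT55, and 392 and 628 in Hutu80. MDST8 again lay above the other 10 libraries, though not without the TMM factors (1530.1 and 1662 unscaled CPM in MDST8, against 2228 in Car-1 replicate 1), SW1116 and Car-1 overlapped in the middle, and RCM-1, HT55 and Hutu80 overlapped at the bottom. The 2 Car-1 libraries differed from each other more than those of any other line. miR-27a-3p was 1.13 ± 0.26 higher in MDST8 (1621 ± 34.5 CPM, SD, n = 2, against 803 in the other lines, adjusted p = 0.000879), which passed in all 19 other settings and left-out libraries. It was also higher in SW1116 (0.73 ± 0.27, adjusted p = 0.0390) and lower in Hutu80 (-0.86 ± 0.32, 0.0352) and HT55 (-0.85 ± 0.31, 0.0473). The SW1116 call was lost when libraries were scaled by totals alone (difference 0.049, adjusted p = 0.926) and without SW1116 replicate 2 (0.322), and that in Hutu80 with library totals (0.216) and without Hutu80 replicate 1 (0.132). In HT55 the call ended with no filter (0.103) and without any one of HT55 replicate 1 (0.368) or 2 (0.183), Car-1 replicate 1 (0.0692), MDST8 replicate 1 (0.0526), RCM-1 replicate 2 (0.0637), SW1116 replicate 2 (0.0604) or Hutu80 replicate 2 (0.0744).

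The chromosome 9 copies were highest in Car-1. miR-23b-3p had 3637 and 5222 CPM in Car-1, 3185 and 3109 in HT55, 2528 and 3311 in SW1116, 1112 and 1532 in Hutu80, 1257 and 1332 in RCM-1, and 1189.6 and 1061 in MDST8. Car-1 lay above the other 10 libraries, HT55 and SW1116 overlapped, and after a gap so did Hutu80 and RCM-1, with MDST8 lowest on average. The Car-1 mean was 3.94 times that of MDST8, the line with the most miR-23a-3p. miR-23b-3p was 1.32 ± 0.21 higher in Car-1 (4429 ± 1121 CPM, SD, n = 2, against 1962 in the other lines, adjusted p = 1.95e-05) and fell by 1.05 ± 0.25 in MDST8 (1125 ± 90.9 CPM against 2622, adjusted p = 0.00112), and both calls held in all 19 other settings and left-out libraries. It was higher in HT55 (0.73 ± 0.22, adjusted p = 0.0145) and SW1116 (0.60 ± 0.22, 0.0383, but -0.079 when scaled by totals alone) and lower in RCM-1 (-0.81 ± 0.24, 0.0104) and Hutu80 (-0.77 ± 0.25, 0.0154). The HT55 call ended without HT55 replicate 1 (0.127) and the SW1116 call without SW1116 replicate 2 (0.407). Leaving out either library of RCM-1 ended the call there (0.131 and 0.0729), and the Hutu80 call ended without its replicate 1 (0.0790) and with library totals (0.193).

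miR-27b-3p had 4807 and 2691 CPM in Car-1, 1339.8 and 1231 in SW1116, 1262 and 905 in MDST8, 1134 and 1029.5 in Hutu80, 701 and 1121 in HT55, and 873 and 889.9 in RCM-1. Car-1 alone stood apart, and each of the other lines overlapped its neighbour in the order. miR-27b-3p was 1.85 ± 0.23 higher in Car-1 (3749 ± 1497 CPM, SD, n = 2, against 1049 in the other lines, adjusted p = 6.51e-07), which passed in all 19 other settings and left-out libraries. It did not pass in the other lines in this fit, but in RCM-1 (-0.66 ± 0.27, adjusted p = 0.0648) it did in 6 of 19 other settings or left-out libraries, among them RLE factors (0.0379), library totals (0.0232) and DESeq2 (0.0222). In SW1116 its difference was -0.00 ± 0.26, with either sign among the other settings.

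miR-24-3p had 1974 and 2016 CPM in MDST8, 1896 and 1731 in SW1116, 1899 and 1315 in Car-1, 1618 and 1409 in HT55, 578 and 979 in Hutu80, and 638 and 810.3 in RCM-1. The 2 MDST8 libraries were the highest of the 12, though not without the TMM factors (1836 and 2099 unscaled CPM, against 2715 in Car-1 replicate 1), SW1116, Car-1 and HT55 overlapped in turn, and Hutu80 and RCM-1 overlapped well below them. It was 0.73 ± 0.23 higher in MDST8 (1995 ± 29.4 CPM, SD, n = 2, against 1287 in the other lines, adjusted p = 0.0131), and fell by 1.02 ± 0.27 in RCM-1 (0.00454) and by 0.89 ± 0.28 in Hutu80 (0.0126). The MDST8 call ended without either MDST8 library (0.0691 and 0.0914), that in RCM-1 when its replicate 1 was left out (0.106), and that in Hutu80 without Hutu80 replicate 1 (0.0916) and with library totals (0.128). In SW1116 (0.57 ± 0.24, adjusted p = 0.0662) it did not pass here but did in 10 of 19 other settings or left-out libraries, such as DESeq2 (0.0499) and no filter (0.0170), and was at -0.092 when scaled by totals alone.

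**Figure D2:**
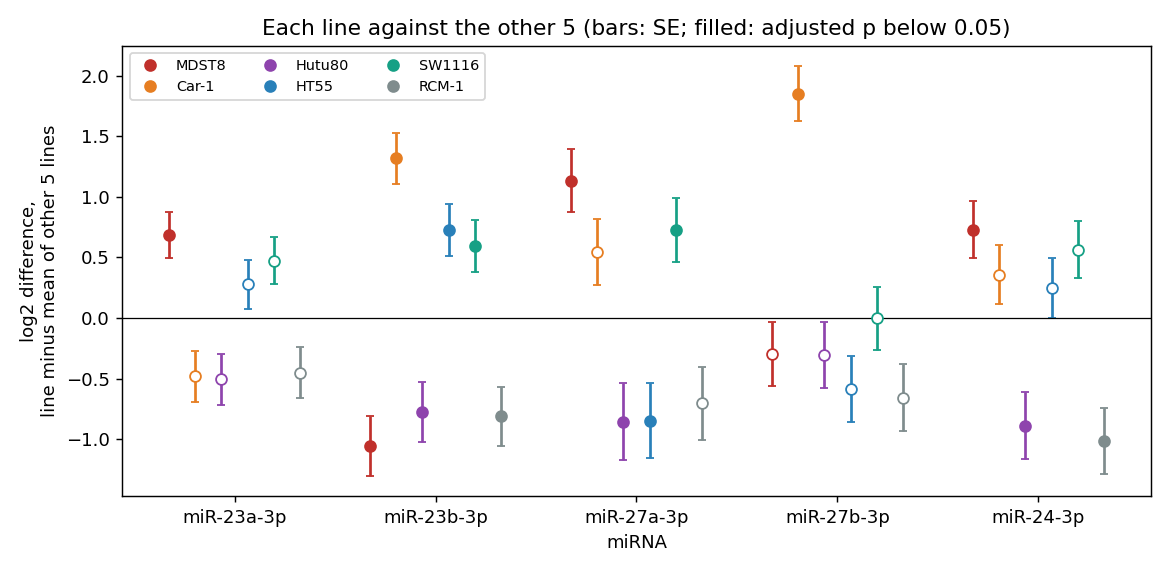
Fitted log2 difference of each line from the mean of the other 5 lines for the 3p miRNAs, with SE as bars and filled points for adjusted p below 0.05. miR-23b-3p was called in all 6 lines, and miR-27b-3p in Car-1. Each line also enters the reference of the other 5, so the differences of a miRNA are not independent of each other.

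By line, 3 of the 5 miRNAs of the 3p arms were higher in MDST8 (miR-23a-3p, miR-27a-3p and miR-24-3p, where 22% of tested miRNAs were called higher) and 1 was lower (miR-23b-3p, where 22.3% were called lower). In Car-1, 2 were higher (miR-23b-3p and miR-27b-3p, against 21.1%) and 0 lower (13.5%). In Hutu80, 3 were lower (miR-27a-3p, miR-24-3p and miR-23b-3p, against 16.7%) and 0 higher (23%). The counts were 1 higher and 1 lower in HT55 (13.8% and 10.4%), 2 higher and 0 lower in SW1116 (17.6% and 16.7%) and 0 higher and 2 lower in RCM-1 (21.1% and 14.8%). The median difference of the 5 was 0.68 in MDST8 (-0.32 over all tested miRNAs), 0.57 in SW1116 (-0.22), 0.55 in Car-1 (0.02), 0.25 in HT55 (-0.08), -0.70 in RCM-1 (-0.12) and -0.77 in Hutu80 (0.09). On the scaled levels, both MDST8 libraries were above the other 10 for 3 of the 5 (15.1% of tested miRNAs), and both Car-1 libraries for 2 (5.66%). For 0 of the 5 did both libraries of a line lie above all others in Hutu80 (12.6% of tested miRNAs), HT55 (6.6%), SW1116 (4.72%) or RCM-1 (5.03%), or below all others in MDST8 (10.1%), Car-1 (4.72%), Hutu80 (4.72%), HT55 (2.2%), SW1116 (2.2%) or RCM-1 (4.72%).

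Libraries scaled by their totals alone shifted the median of all miRNAs by 0.63 in Car-1, 0.35 in Hutu80, -0.18 in RCM-1, -0.11 in HT55 and -0.66 in SW1116. Ratios of counts within a library do not depend on the scaling, so the copies were compared through them. The count of miR-23a-3p was 6.61 and 8.37 times that of miR-23b-3p in MDST8, 3.42 and 3.30 times in RCM-1, 3.23 and 3.14 times in Hutu80, 2.85 and 2.31 times in SW1116, 1.92 and 2.30 times in HT55, and 1.24 and 0.778 times in Car-1. MDST8 lay above and Car-1 below all other libraries. The line means spanned 2.92 on the log2 scale, or 7.58-fold, with an SD of 0.25 between libraries of a line. In an exact permutation test over all ways to pair the 12 libraries, the spread across lines had p = 9.62e-05, the smallest this test can give (adjusted p = 0.000577 over 6 ratios).

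The ratio of miR-27a-3p to miR-27b-3p was 1.30 and 1.76 in MDST8, 0.836 and 1.17 in SW1116, 0.584 and 0.686 in RCM-1, 0.644 and 0.513 in HT55, 0.349 and 0.611 in Hutu80, and 0.325 and 0.278 in Car-1. MDST8 was again the highest line and Car-1 the lowest, without overlap with any other library. The line means spanned 2.33 on the log2 scale, or 5.04-fold, with an SD of 0.33 between libraries of a line (exact permutation p = 0.00164, adjusted p = 0.00491 over 6 ratios). Both paralog ratios passed with each library left out (adjusted p = 0.000577 to 0.00924 for miR-23 and 0.00404 to 0.0304 for miR-27, exact permutation).

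**Figure D3:**
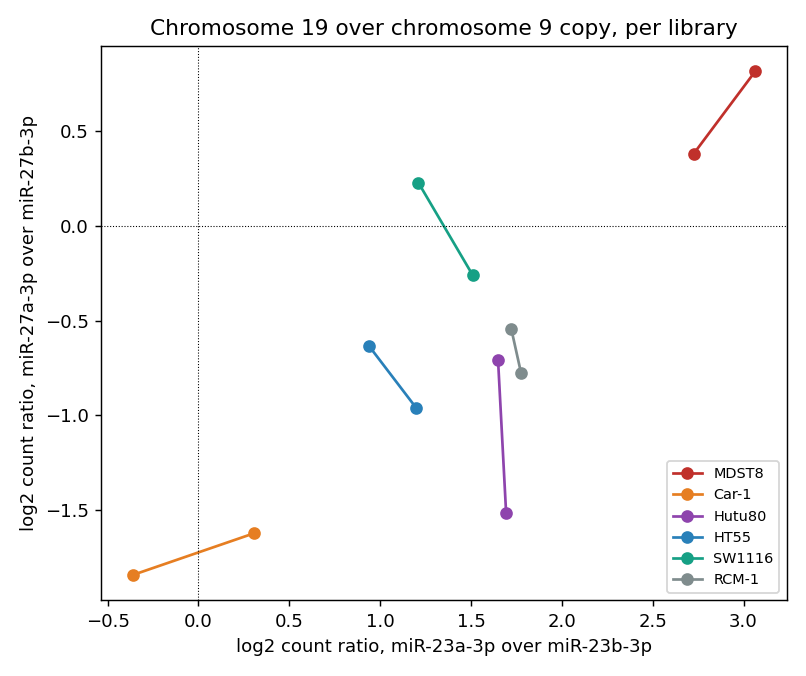
Log2 count ratio of the chromosome 19 copy over the chromosome 9 copy for miR-27 (vertical) and miR-23 (horizontal), 1 point per library with the 2 libraries of a line joined. MDST8 is at the upper right, Car-1 at the lower left, and the other 8 libraries lie between them on both axes.

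Which copy had more counts differed between miR-23 and miR-27. miR-23a-3p exceeded miR-23b-3p in 11 of 12 libraries, by a mean log2 ratio of 1.45 ± 0.96 (SD over 6 lines) or 2.74-fold, and miR-27a-3p exceeded miR-27b-3p in 3 of 12, with a mean log2 ratio of -0.62 ± 0.82. Neither mean passed an exact two-sided sign-flip permutation test over the 6 lines (p = 0.0625 and 0.0938, adjusted p = 0.0938 for both, smallest possible p 0.0312). These ratios also depend on how well each sequence was captured and assigned in each library, which was not tested.

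Of all miR-23-3p and miR-27-3p counts, the chromosome 19 copies made up 79.5% and 84.2% in MDST8, 69.4% and 69.3% in RCM-1, 68.3% and 66.7% in SW1116, 64.05% and 68.0% in Hutu80, 62.8% and 64.6% in HT55, and 41.8% and 37.8% in Car-1. Exact 95% binomial intervals, which cover counting error only, ran from 78.2% to 80.8% for the lower MDST8 library and from 40.2% to 43.4% for the higher Car-1 library. Between these lines lay a group of 4, from 62.8% to 69.4%. In Car-1 the summed share fell below that of the chromosome 9 copies, in both libraries. From miR-23 alone, the Car-1 share was 55.3% in replicate 1 and 43.7% in replicate 2. The summed share gives more weight to miR-23, which had more counts. From miR-27 alone, the mean share was 60.2% in MDST8 and 23.1% (Car-1) to 49.7% (SW1116) in the other lines.

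**Figure D4:**
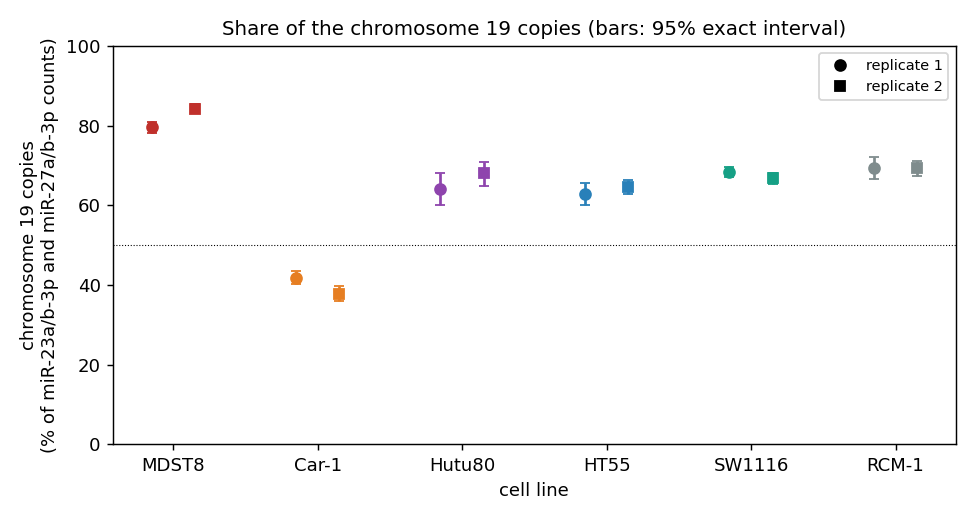
Share of chromosome 19 copies in the summed counts of miR-23a-3p, miR-23b-3p, miR-27a-3p and miR-27b-3p (vertical, percent), per library, with exact 95% intervals. MDST8 is highest at 79.5% and 84.2%, and Car-1 alone is under the dotted line at 50%.

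Partners from one cluster were then compared. On chromosome 19, the ratio of miR-23a-3p to miR-27a-3p was 13.5 and 12.4 in HT55, 9.08 and 7.62 in Hutu80, 8.44 and 7.19 in RCM-1, 6.42 and 5.30 in SW1116, 4.78 and 5.57 in MDST8, and 2.89 and 5.42 in Car-1. HT55 lay above all other libraries, with its mean ranked 3 of 6 for miR-23a-3p and 5 of 6 for miR-27a-3p. The line means spanned 1.71 on the log2 scale, or 3.26-fold (exact permutation p = 0.00491, adjusted p = 0.00981), a call that ended without HT55 replicate 1 (adjusted p = 0.0539, exact permutation).

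On chromosome 9, the ratio of miR-23b-3p to miR-27b-3p was 4.52 and 2.77 in HT55, 1.89 and 2.69 in SW1116, 1.44 and 1.496 in RCM-1, 0.981 and 1.49 in Hutu80, 0.757 and 1.94 in Car-1, and 0.942 and 1.17 in MDST8. HT55 was the highest here too, while the Car-1 libraries lay on either side of 1. The spread across lines, 1.75 on the log2 scale, did not pass (exact permutation p = 0.0786, adjusted p = 0.0943), but it did without Car-1 replicate 1 (adjusted p = 0.0284) or 2 (0.0190). Within Car-1, replicate 1 had more miR-27b-3p and replicate 2 more miR-23b-3p, so leaving out either removes that difference.

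**Figure D5:**
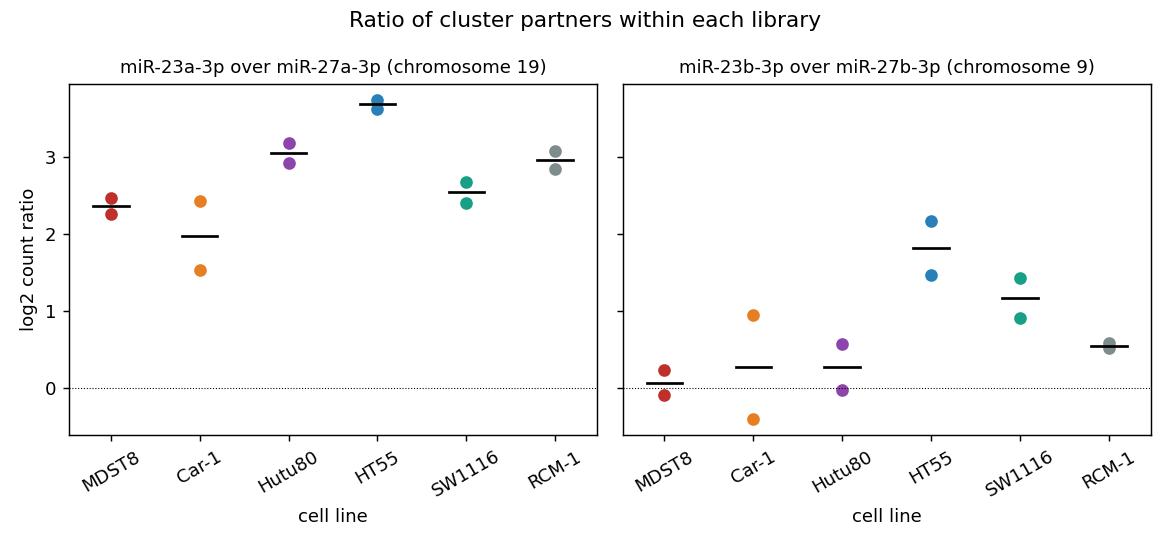
Log2 count ratio of miR-23 over miR-27 from chromosome 19 (left) and chromosome 9 (right) in each library (points) by line, with the line mean as a bar. HT55 has the highest mean on both chromosomes, and miR-23a-3p exceeds miR-27a-3p in all 12 libraries.

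Since both clusters can give miR-24-3p, it was set against the sum of the copies. Its count was 0.115 (RCM-1 replicate 1) to 0.234 (Car-1 replicate 1) times the sum of miR-23a-3p and miR-23b-3p, and the line means, from 0.13 in RCM-1 to 0.21 in MDST8, did not differ beyond the spread of libraries (exact permutation p = 0.251, adjusted p = 0.251). Against the sum of miR-27a-3p and miR-27b-3p, it was 1.404 and 0.831 in HT55, 0.679 and 0.806 in MDST8, 0.771 and 0.647 in SW1116, 0.464 and 0.541 in RCM-1, 0.381 and 0.592 in Hutu80, and 0.299 and 0.383 in Car-1. HT55 was thus highest and Car-1, with its high miR-27b-3p, lowest (exact permutation p = 0.00933, adjusted p = 0.0140). That call ended without HT55 replicate 1 (adjusted p = 0.0696) and without Car-1 replicate 1 (0.0606, exact permutation).

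The 5p arms of the chromosome 9 hairpins, the strands usually discarded, passed the filter through few libraries: miR-23b-5p through HT55 replicate 1 and Car-1 replicate 2, and miR-27b-5p through both Car-1 libraries and Hutu80 replicate 2. miR-27b-5p had 25 and 26 counts in Car-1, 3 and 17 in Hutu80, 10 and 7 in SW1116, 1 and 9 in HT55, 5 and 0 in RCM-1, and 0 and 5 in MDST8. Its scaled level averaged 115 CPM in Car-1, against 31.8 in the other lines, a ratio of 3.63, and 87.5 CPM in Hutu80, against 37.3 in the other lines, a ratio of 2.34. Pooled over libraries and unscaled, which gives the deep libraries of SW1116 more weight, the ratios were 8.16 for Car-1 (95% counting interval 5.48 to 12.1) and 3.91 for Hutu80 (2.28 to 6.42). These values are descriptions, since miR-27b-5p was tested only because of its level in these lines.

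miR-23b-5p had 5 and 27 counts in Car-1, 16 and 5 in HT55, 8 and 0 in RCM-1, 8 and 1 in SW1116, 1 and 1 in Hutu80, and 3 and 3 in MDST8. The libraries of Car-1, HT55, SW1116 and RCM-1 differed widely within each line, with scaled means of 77.4 CPM in Car-1 and 80.8 in HT55 and 9.44 to 26.1 in the other lines. The fitted difference of miR-23b-5p in Car-1 ran from -0.0085 to 3.19 when a library was left out. Its edgeR tests are not read as results, since it entered the test through libraries of Car-1 and HT55. Its ratio to miR-23b-3p was not tested, since 10 of 12 libraries had fewer than 10 counts of it. The ratio of miR-27b-5p to miR-27b-3p was not tested for the same reason.

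A cluster list held 7 further miRNAs: the other arms of these hairpins, miR-23c and both arms of miR-3074. Of these, 1 was tested and 1 was at 0 in every library. The tested one, miR-23a-5p, passed the test across lines, but it reached the filter level only in both Car-1 libraries and Hutu80 replicate 1, so its values are given as a description. It had 13 and 18 counts in Car-1, 5 and 5 in Hutu80, 5 and 11 in RCM-1, 7 and 3 in MDST8, 1 and 2 in HT55, and 0 and 1 in SW1116. Its scaled level averaged 71.2 CPM in Car-1, against 21.4 in the other lines, a ratio of 3.33, while the ratio of pooled, unscaled CPM was 7.06 (95% counting interval 4.27 to 11.6). In SW1116, with 1 count, the pooled ratio was 0.0257 (0.000643 to 0.148). Over all 12 libraries miR-24-2-5p, which only chromosome 19 gives, had 71 counts and miR-24-1-5p, which only chromosome 9 gives, had 14, while miR-27a-5p had 39, miR-23c (from the X chromosome) 13, miR-3074-5p 6 and miR-3074-3p 0. The 2 miR-24 passenger arms were therefore too few to say by line which hairpin gave miR-24-3p.

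The miRNAs with the most similar pattern were sought among the 317 others tested, by Pearson correlation of log2 scaled CPM over the 12 libraries. These are descriptions, since libraries of a line are not independent. miR-24-3p was closest to miR-27a-3p (0.78), miR-181a-2-3p (0.78) and miR-23a-3p (0.77), so that both chromosome 19 partners were among its nearest 3, while miR-23b-3p ranked 41st (0.42) and miR-27b-3p 69th (0.31). miR-23a-3p was closest to miR-3609 (0.93), miR-221-3p (0.83) and miR-222-3p (0.80), with miR-24-3p 5th, its partner miR-27a-3p 17th and its paralog miR-23b-3p 145th (-0.02). miR-27a-3p was closest to miR-21-5p (0.89), miR-181a-2-3p (0.83) and miR-103a-3p (0.79), with miR-24-3p 6th and miR-23a-3p 25th.

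miR-27b-3p was closest to miR-205-5p (0.90), miR-10397-5p (0.88) and miR-934 (0.84), with miR-23b-3p 28th (0.56) and miR-27a-3p 53rd (0.44). miR-23b-3p was closest to miR-760 (0.83), miR-744-5p (0.82) and, like miR-27b-3p, to miR-205-5p (0.80), which is known from squamous epithelium. miR-27b-5p was closest to miR-4443 (0.89), miR-4448 (0.87) and miR-92b-5p (0.84). The nearest to miR-23b-5p were miR-451a (0.72), miR-144-5p (0.71) and miR-486-5p (0.68), which are miRNAs of red blood cells, at counts too low for a finding.

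The medium held serum, which brings vesicles with miRNAs of its own. The 7 blood and serum miRNAs on the marker list summed to 5560 to 6032 CPM in HT55, 3871 to 4499 in Car-1, 3515 to 4416 in Hutu80, 2522 to 3348 in RCM-1, 1772 to 2240.0 in MDST8 and 1681 to 2439 in SW1116. Of these, 6 were tested and 2 differed across lines (miR-150-5p and miR-486-5p), where 68.2% of all tested miRNAs did. miR-144-3p was at 0 in 9 of 12 libraries. By these sums HT55 was highest, Car-1 overlapped Hutu80, and MDST8 and SW1116 overlapped at the bottom. The sums were mostly miR-486-5p, with means from 1318 CPM in MDST8 to 4413 in HT55. The other miRNAs on the list did not all keep this order. miR-150-5p was highest in RCM-1 (mean 649 CPM, against 149 in HT55), while miR-451a was highest in HT55 (371) but close to that in Car-1 (356). What part serum had in the levels of the miRNAs of either chromosome was not tested. The 6 muscle and stroma miRNAs summed to 292 to 883 CPM over all libraries, with miR-214-3p at 0 in 9 libraries. Of these, 3 were tested and 2 differed across lines, near the share of 68.2% among all tested miRNAs. The endothelial miR-126-3p had 82.5 to 276 CPM (adjusted p = 0.247 across lines, edgeR).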

How the data were processed

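Small RNA of vesicles isolated by ultrafiltration and size-exclusion chromatography was made into libraries with IsoSeek, a low-input protocol with unique molecular identifiers, per the labels' protocols. The deposited table holds raw whole-number counts per mature miRNA, with hg38 as the build per the submitters' processing notes. The sources used here name no aligner, annotation release or counter, and do not say whether identifiers were collapsed, so intervals cover counting error only. A second deposited table (12 columns) was not used.

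Groups were the lines in the labels. edgeR 4.0.16 (R 4.3.3; filterByExpr by line, TMM factors, robust glmQLFit and glmQLFTest) fitted all 12 libraries with 1 mean per line; Benjamini-Hochberg adjustment ran over all 318 tested miRNAs, and an SE is a difference divided by the square root of F. The 318 hold 99.7% of counts. Depth limits the rare arms: 1 count was worth 1.61 to 13.9 CPM. For a within-library ratio, 0.5 was added to each count; of 8 planned ratios, 6 were tested, those with fewer than 10 counts on a side in at most 2 libraries, by exact permutation of a one-way F, adjusted over the 6. The scripts were tested on simulated data. The miRNAs, the lists and the naming rule (all 7 members, the cluster list, and the 3 most similar miRNAs each) were chosen with earlier results of these data known. Alternatives were RLE factors, library totals, no filter, at least 10 CPM in 2 libraries, DESeq2 1.42.0, 1 added in place of 0.5, removal of the 10 most abundant miRNAs, a block for the replicate number, and each library left out in turn. In that last case the line's single remaining library is taken to vary as those of other lines do.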

Additional observations from a re-analysis of the deposited data

How the results depend on the processing

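Both paralog ratios kept their call with 1 added to each count in place of 0.5 and with the replicate block. The settings for scaling, filter and DESeq2 were not applied to the ratios. With a library left out, the ratios spanned 2.59 to 3.26 (miR-23a-3p over miR-23b-3p), 2.12 to 2.55 (miR-27a-3p over miR-27b-3p), 1.32 to 2.16 (miR-23a-3p over miR-27a-3p), 1.397 to 2.23 (miR-23b-3p over miR-27b-3p) and 1.30 to 2.05 (miR-24-3p over both miR-27) on the log2 scale between the highest and lowest line. The share of the chromosome 19 copies was 88.1%, 49.5%, 76.2%, 67.7%, 71.9% and 77.1% in MDST8, Car-1, Hutu80, HT55, SW1116 and RCM-1 from miR-23 alone, and 60.2%, 23.1%, 31.8%, 36.5%, 49.7% and 38.7% from miR-27 alone, with MDST8 highest and Car-1 lowest in both. With library totals as the only scaling, the miRNAs called numbered 117 higher and 12 lower in Car-1, 28 higher and 104 lower in SW1116 and 33 lower in Hutu80; with no filter, 23 were lower in Car-1 and 23 in SW1116. With a library left out, the counts were 21 to 46 lower in Car-1, 42 to 67 higher and 9 to 41 lower in HT55, 43 to 78 higher in Hutu80, 44 to 74 higher and 29 to 53 lower in RCM-1, and 32 to 67 higher and 17 to 47 lower in SW1116. Library totals also brought calls in Car-1 for miR-27a-3p (1.17, adjusted p = 0.000742, edgeR) and miR-24-3p (0.99, adjusted p = 0.00130). The differences that changed sign had all missed the threshold in the reported fit, except miR-23b-3p in SW1116. With library totals they were miR-23a-3p in Car-1 (0.15) and, in SW1116, miR-23a-3p (-0.20), miR-24-3p (-0.092) and miR-23b-3p (-0.079), and miR-27b-3p in Hutu80 (0.052); the cause was not tested. miR-27b-3p in SW1116 was at 0.020 with RLE factors and in DESeq2, 0.22 with no filter, 0.11 with at least 10 CPM in 2 libraries and 0.059 without the 10 most abundant miRNAs, and miR-23b-5p in RCM-1 at 0.026 in DESeq2. With a library left out, sign changes occurred for miR-27b-3p in SW1116 (-0.032 to 0.29), miR-27a-3p in Car-1 (-0.054 to 0.77), miR-23b-5p in Car-1 (-0.0085 to 3.19) and RCM-1 (-5.52 to 1.15), and miR-27b-5p in HT55 (-1.58 to 0.86) and SW1116 (-0.71 to 0.49). Whether the replicate numbers pair the libraries is not in the labels. Deviations of same-numbered libraries correlated at -0.23 to 0.27 (median 0.06) over 15 pairs of lines, above 0.1 in 5, which does not settle it. With the replicate block, 223 miRNAs differed across lines, against 217, and among the 7 miRNAs the block changed the calls of miR-23b-5p alone. Those calls are not read as results, since miR-23b-5p entered the test through HT55 replicate 1 and Car-1 replicate 2, where it was high. Depth limits the 5p arms most, with 0 to 27 counts a library.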
